A study of Mus musculus with 24 samples.

Results

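The hexosamine pathway enzymes described here are 6 genes, Gfpt1, Gfpt2, Gnpnat1, Pgm3, Uap1 and Ogt, of the 32728 genes listed in the deposited RNA-seq tables of mouse neurons and astrocytes. They were taken by gene symbol, by a rule that uses no measured value but was proposed with earlier results of these data known. Each was listed in all 8 deposited comparison tables. The libraries were 24, in 8 groups of 3. Every culture came from Perk loxP/loxP mice and had received a lentivirus. The virus carried either an inactive ΔCre recombinase, which left Perk intact (WT), or an active Cre, which removed floxed Perk (Perk KO). At day 14 in vitro, cultures of neurons or astrocytes of each genotype were given 5 µg/mL tunicamycin (TM) for 24 h, a time the series text gives as 20 to 24 h, or an equal volume of DMSO (control). Neither the promoter that drove the recombinase nor the age of the mice is stated in the labels. The labels number the libraries of a group as biological replicates and do not say whether these came from separate mice, so the p-values measure the spread between these cultures.

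The hexosamine pathway branches from glycolysis and turns fructose-6-phosphate, glutamine, acetyl-CoA and UTP into UDP-N-acetylglucosamine (UDP-GlcNAc). That sugar nucleotide is the donor for N-linked glycans built in the endoplasmic reticulum (ER), for other glycans, and for the single O-GlcNAc residues placed on nuclear and cytosolic proteins. Tunicamycin resembles UDP-GlcNAc and blocks Dpagt1, the enzyme that starts the N-glycan precursor, so unfolded glycoproteins build up in the ER and activate its stress sensors, Perk (gene Eif2ak3), Ire1 and Atf6. Gfpt1 is known from other systems as a target of the spliced Xbp1 made by Ire1 signalling.

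Each member was located on GRCm38. Gfpt1 and Gfpt2 encode the 2 forms of glutamine-fructose-6-phosphate transaminase, the first and rate-limiting step. Gfpt1 (ENSMUSG00000029992) lies on chromosome 6 at 87042846 to 87092197, and Gfpt2 (ENSMUSG00000020363) on chromosome 11 at 49794178 to 49838613, both on the plus strand. Gnpnat1 (ENSMUSG00000037722), which acetylates glucosamine-6-phosphate, lies on chromosome 14 at 45376334 to 45404913 on the minus strand. Pgm3 (ENSMUSG00000056131), the mutase that moves the phosphate of GlcNAc-6-phosphate, lies on chromosome 9 at 86554377 to 86571842 on the minus strand. Uap1 (ENSMUSG00000026670), the pyrophosphorylase that makes UDP-GlcNAc, lies on chromosome 1 at 170141938 to 170174957 on the minus strand. Ogt (ENSMUSG00000034160), the transferase that uses UDP-GlcNAc for O-GlcNAc, lies on chromosome X at 101640060 to 101684351 on the plus strand.

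The promoter sequences are shown because 3 of the members described below moved together under TM. RefSeq promoter windows on GRCm38.p6, of 250 bases before and 50 bases after the annotated start, were found for 5 of the 6 members. They were searched on both strands for GACGTG, the core of sites bound by spliced Xbp1 and Atf6, for CCACG and for CCAAT followed by 9 bases of any kind and CCACG, the short and full ER stress elements, and for TGATGNAA, a form of the Atf4 composite site. GACGTG was found in 4 of those 5 members, against 6.38% of all 32851 windows, and the Ogt windows held none of the 4 motifs. The motifs were chosen with these sequences in view, so the share of all windows is given as context and not as a test. CCACG was found in Gfpt1, Pgm3 and Uap1 and occurs in 32.8% of all windows. Its letters overlap the reverse complement of GACGTG where the run reads CCACGTC. The full ER stress element (0.119% of windows) and TGATGNAA (3.97%) were in none of the members' windows. A match is a description of letters, not evidence of binding. The 250 bases before the Gfpt1 start, chr6:87042596-87042845 on the plus strand, are printed whole because Gfpt1 had one of the largest TM responses here, with the GACGTG match (read here as its complement) in capitals:
Gfpt1 promoter: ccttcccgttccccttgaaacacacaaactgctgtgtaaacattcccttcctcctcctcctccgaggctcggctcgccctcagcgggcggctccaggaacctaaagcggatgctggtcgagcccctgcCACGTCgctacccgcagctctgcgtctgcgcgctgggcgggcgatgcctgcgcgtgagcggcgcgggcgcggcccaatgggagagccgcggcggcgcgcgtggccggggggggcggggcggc

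The 4 matches are set side by side as 30-base stretches, each 5′ to 3′ on the gene's own strand, with the motif or its complement in capitals. They lie at chr6:87042712-87042741 (Gfpt1, plus), chr11:49793905-49793934 (Gfpt2, plus), chr9:86571801-86571830 (Pgm3, minus) and chr1:170174945-170174974 (Uap1, minus):
Gfpt1 site: tcgagcccctgcCACGTCgctacccgcagc
Gfpt2 site: ttgctaaagtttCACGTCtaatatgactga
Pgm3 site: gcaaagctgggcCACGTCtgcgaggtctga
Uap1 site: ttctcggtcgctGACGTGtcgggccggcag
The first motif base stands at position -122 from the start in Gfpt1 and at -238 in Gfpt2, with the start counted as 1. It stands at 25 in Pgm3 and at 3 in Uap1, after the RefSeq start. The Uap1 start in RefSeq lies upstream of the gene end given above, which is from the tables. The Gfpt1 and Pgm3 sites are also matches to CCACG.

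The libraries held 16030022 to 25934747 counts in genes. Eif2ak3, the gene deleted in Perk KO, was at 26.1 ± 1.7 to 37.4 ± 3.58 CPM (counts scaled to library size; SD, n = 3) in WT controls and at 5.38 ± 0.394 to 6.71 ± 0.814 in Perk KO controls. The 12 neuron markers summed to 7170 to 7670 CPM in WT control neurons and to 283 to 332 CPM in WT control astrocytes. The 9 astrocyte markers summed to 3240 to 3480 CPM in WT control neurons, against 2280 to 3510 CPM in WT control astrocytes. The neuronal cultures thus held astrocyte transcripts at a summed level like that of the astrocyte cultures. Single markers were split, with 3 called higher in the neuronal cultures, 4 lower and 2 not called (71.1% of all genes called). Under TM the summed astrocyte markers were at 955 to 1060 CPM in WT neurons, 634 to 720 in WT astrocytes, 3240 to 4280 in Perk KO neurons and 1850 to 2480 in Perk KO astrocytes. The neuron markers were at 3370 to 3590 CPM in TM-treated WT neurons, 5900 to 6400 in Perk KO control neurons and 3590 to 4110 in TM-treated Perk KO neurons. None of the 21 markers of either list was at 0 in every library of a group, with the exception of 1 neuron marker in Perk KO control astrocytes. In WT controls the 8 fibroblast and mural markers summed to 448 to 471 CPM in neurons and 1070 to 1230 in astrocytes. Under TM they were at 143 to 174 and 342 to 439 CPM. The 8 oligodendrocyte lineage markers were at 436 to 519 and 300 to 336 CPM in WT controls. Under TM they were at 94.7 to 138 and 85.9 to 90.8. In control neurons, 6 of the 8 fibroblast and mural markers were called higher in Perk KO than in WT (21.4% of all genes called). The part of cell makeup in the results that follow was not tested.

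**Figure D1:**
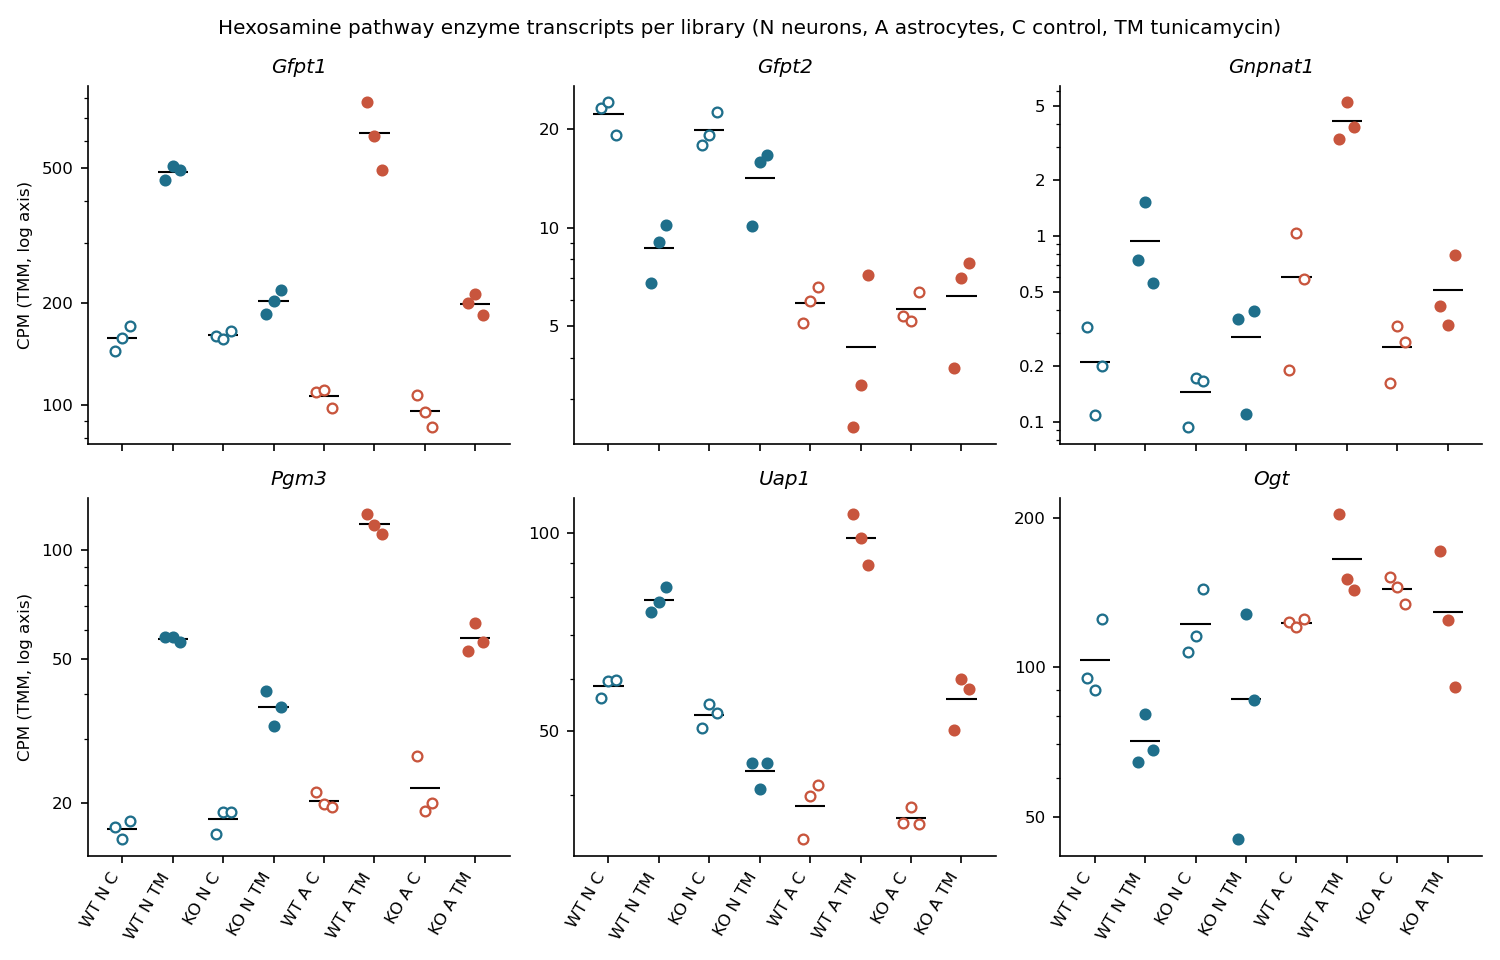
CPM of the 6 enzymes in each of the 24 libraries (log axes, scaled separately per gene); open circles are controls, filled circles TM, blue neurons (N), red astrocytes (A), and bars are group means. The group means of Gfpt1, Pgm3 and Uap1 are highest in TM-treated WT astrocytes, and these genes are near each other in the WT and Perk KO controls of a cell type.

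In unstressed WT neurons, Gfpt1, Uap1 and Ogt were the most abundant of the 6 transcripts per length. On the CPM per kb scale, Gfpt1 was at 15.6 ± 1.29 (SD, n = 3), Uap1 at 14.6 ± 0.513 and Ogt at 12.9 ± 2.35, and these neighbours lay within each other's spread. Gfpt2 (3.97 ± 0.476) and Pgm3 (3.78 ± 0.225) followed and also lay within each other's spread. In unstressed WT astrocytes the order began with Ogt (15.3 CPM per kb), followed by Gfpt1 (10.5) and Uap1 (9.61), which overlapped, then Pgm3 (4.52) and Gfpt2 (1.05). Gnpnat1 was last in both, at 0.0444 CPM per kb in neurons and 0.128 in astrocytes, values that divide by its full length although most of its exonic bases are shared with another gene, as given below, and that may be far too low.

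In unstressed cultures, the member tested with the largest difference between neurons and astrocytes was Gfpt2, the form of the transaminase found mainly in the nervous system. Gfpt2 was at 23.3, 24.2 and 19.2 CPM in the 3 WT control neuron libraries and at 5.1, 5.97 and 6.59 CPM in the WT control astrocyte libraries. Every neuronal library lay above every astrocyte library, and the log2 difference of neurons against astrocytes was 1.95 ± 0.17 (SE), with an adjusted p of 8.02e-06 from edgeR's quasi-likelihood test with Benjamini-Hochberg adjustment over all genes. Gfpt1 was also higher in the neuronal cultures, at 144, 158 and 170 CPM against 109, 111 and 98.1 CPM (log2 difference 0.61 ± 0.11, adjusted p = 0.00107). Uap1 was at 56.2, 59.7 and 59.8 CPM in neurons and at 34.3, 39.9 and 41.4 CPM in astrocytes (0.64 ± 0.12, adjusted p = 0.00101). These 3 of 5 members tested were called, all higher in neurons, where 71.1% of all genes tested were called and 35.8% were higher. Pgm3 (log2 difference -0.22, adjusted p = 0.177) and Ogt (-0.21, adjusted p = 0.223) did not pass the test. Ogt passed at -0.35 without the third WT control neuron library. The same 3 were called higher in Perk KO control neurons against Perk KO control astrocytes (69.3% of all genes called, 35.4% higher), with Gfpt2 again at the largest log2 difference (1.84 ± 0.16, adjusted p = 1.73e-06). There too Ogt passed at -0.35 without the third control neuron library. In such bulk samples, fewer cells of a type and less RNA per cell cannot be told apart.

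In WT neurons under tunicamycin, Gfpt1, Pgm3 and Uap1 were called higher and Gfpt2 lower. The first-step gene Gfpt1 was at 144, 158 and 170 CPM in the control libraries and at 460, 507 and 493 CPM under TM. All 3 treated libraries lay above all controls, and the level was 3.42-fold higher (log2 difference 1.77 ± 0.09, adjusted p = 1.96e-06). Pgm3 was at 17.1, 15.9 and 17.9 CPM in controls and at 57.5, 57.5 and 55.6 CPM under TM. It rose 3.72-fold with no overlap (1.90 ± 0.10, adjusted p = 2.56e-06). Uap1, the last step to UDP-GlcNAc, rose less, from 56.2, 59.7 and 59.8 CPM to 76, 78.7 and 82.8 CPM (0.58 ± 0.08, adjusted p = 0.000492). Gnpnat1 was called higher too, on few counts that are taken up below. It reached the minimum mean for a test only through its TM libraries. Gfpt2 moved the other way, from 23.3, 24.2 and 19.2 CPM to 6.76, 9.03 and 10.2 CPM. The groups did not overlap, and Gfpt2 fell by 1.21 on the log2 scale (SE 0.18, adjusted p = 0.000536). With Gnpnat1, 5 of 6 members tested were called, where 51.8% of all genes tested were called, 27% higher and 24.8% lower. Gnpnat1 does not count as support there, since it could be tested only through its TM libraries. The marker sums of neurons and of astrocytes were both lower under TM in these libraries, as given above, and their part in the fall of Gfpt2 was not tested.

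In WT astrocytes the same 3 well-counted enzymes rose, and by more. Gfpt1 was at 109, 111 and 98.1 CPM in controls and at 778, 621 and 492 CPM under TM, its highest group mean in the study. The libraries did not overlap, and the rise was 5.87-fold (log2 difference 2.55 ± 0.18, adjusted p = 4.63e-05). Pgm3 went from 21.5, 19.8 and 19.5 CPM to 126, 117 and 111 CPM, 5.74-fold (2.52 ± 0.11, adjusted p = 1.31e-05). Both responses were larger than those of 99.4% of the 14907 genes tested. Uap1 rose 2.52-fold, from 34.3, 39.9 and 41.4 CPM to 107, 98.4 and 89.5 CPM (1.33 ± 0.12, adjusted p = 9.79e-05). Gfpt2 was at 5.1, 5.97 and 6.59 CPM in controls and at 2.45, 3.29 and 7.16 CPM under TM. Its groups overlapped because the third TM library was above every control, and the difference did not pass the test (-0.47 ± 0.38, adjusted p = 0.326). Without that library the difference was -1.04 and passed (adjusted p = 0.0182). With Gnpnat1 and Ogt, 5 of 6 members were called higher, against 25% of all genes higher and 52.7% called in either direction.

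Per length, Gfpt1 led under TM in both cell types. In TM-treated WT astrocytes, Gfpt1 stood at 62.6 CPM per kb, followed by Pgm3 (26.3), Uap1 (24.5) and Ogt (20.6), where Ogt had led in the controls. The ranges of Pgm3 and Uap1 overlapped there, and so did those of Uap1 and Ogt. In TM-treated WT neurons the order was Gfpt1 (48.3 CPM per kb), Uap1 (19.7), Pgm3 (12.7), Ogt (8.84) and Gfpt2 (1.55). In the neuronal controls Gfpt1 had the highest mean but overlapped with Uap1 and Ogt.

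In WT cultures the TM response of neurons was below that of astrocytes by the test of the difference itself for 4 of 6 members (24.9% of all genes called, 12.5% with this sign). The log2 response of neurons minus that of astrocytes was -0.95 ± 0.21 for Gfpt1 (adjusted p = 0.00568) and -0.80 ± 0.14 for Pgm3 (adjusted p = 0.00176). It was -0.92 ± 0.15 for Uap1 (adjusted p = 0.000886) and -0.98 ± 0.23 for Ogt (adjusted p = 0.00781), whose 2 responses had opposite signs. For Gfpt2 it was -0.92 ± 0.43 (adjusted p = 0.134). That value passed in 1 of 18 alternatives, at -1.20 without the first TM-treated WT astrocyte library. Over the alternatives it ran from -1.20 to -0.34, with adjusted p up to 0.463. Under TM, the level of Gfpt1 in WT neurons against WT astrocytes did not pass the test (log2 difference -0.25 ± 0.15, adjusted p = 0.16). That comparison passed at -0.41 without the third TM-treated WT astrocyte library. Pgm3 was lower in TM-treated WT neurons than in TM-treated WT astrocytes (-0.94 ± 0.09, adjusted p = 2.7e-05), and so was Ogt (-1.10 ± 0.15, adjusted p = 0.000204). Gfpt2 was higher in the neurons (1.11 ± 0.38, adjusted p = 0.0274). That Gfpt2 call was lost in 4 of 13 alternatives, including a change of processing. It was lost without the second or the third neuronal TM library (1.08 and 0.98) or the second astrocyte TM library (0.95). The Gfpt2 value was 1.71 without the third astrocyte TM library. With Gnpnat1, 4 of 6 members were called, 1 higher and 3 lower in neurons, against 70.6% of all genes called, 36.6% higher and 33.9% lower.

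Without Perk, the TM responses of Gfpt1, Pgm3 and Uap1 were smaller, a difference whose own test follows the values. In Perk KO neurons, Gfpt1 was at 159, 157 and 165 CPM in controls and at 185, 203 and 218 CPM under TM. The groups did not overlap, and the difference was 1.29-fold (log2 0.37 ± 0.10, adjusted p = 0.0276). This call was lost when any 1 of the 3 control libraries (log2 0.35, 0.35 and 0.40) or the third TM library (0.30) was left out. Pgm3, the mutase, rose more, from 16.4, 18.8 and 18.9 CPM to 40.8, 32.6 and 36.9 CPM, 2.09-fold (1.07 ± 0.13, adjusted p = 0.0014). Uap1 was at 50.7, 55 and 53.3 CPM in controls and slightly lower, at 44.8, 40.9 and 44.8 CPM, under TM. That difference did not pass (-0.25 ± 0.10, adjusted p = 0.106, 95% interval -0.47 to -0.02). Gfpt2 was at 17.9, 19.2 and 22.6 CPM and at 10.1, 15.9 and 16.7 CPM under TM (-0.45 ± 0.21, adjusted p = 0.163). In all, 2 of 5 members tested were called, both higher, against 23.8% of all genes called and 13.1% higher.

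In Perk KO astrocytes 3 of 5 members tested were called, all higher, against 10.1% of all genes called and 5.73% higher. With the replicate number as a block the same 3 were called, while the count over all genes went from 1526 to 4299. Gfpt1 went from 107, 95.8 and 86 CPM to 200, 212 and 184 CPM, with no overlap (log2 difference 1.05 ± 0.11, adjusted p = 0.000435). Pgm3 went from 26.9, 19 and 19.9 CPM to 52.5, 63.1 and 55.7 CPM (1.39 ± 0.15, adjusted p = 0.000516). Uap1 went from 36.3, 38.4 and 36.2 CPM to 50.3, 60 and 57.9 CPM (0.61 ± 0.10, adjusted p = 0.00479). Thus each of these 3 still rose, by 1.52 to 2.61-fold. Gfpt2 was at 5.37, 5.19 and 6.36 CPM in controls and at 3.72, 6.99 and 7.78 CPM under TM, overlapping groups with no call (0.13 ± 0.27, adjusted p = 0.839).

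The responses of the cell types also differed without Perk in 2 of 5 members tested (11.7% of all genes called, 4.78% with this sign). The log2 response of Perk KO neurons minus that of Perk KO astrocytes was -0.66 ± 0.15 for Gfpt1 (adjusted p = 0.0146) and -0.84 ± 0.14 for Uap1 (adjusted p = 0.00319). Pgm3 did not pass, at -0.30 ± 0.21 (adjusted p = 0.369). In TM-treated Perk KO cultures, 3 of 5 members differed between neurons and astrocytes (55.9% of all genes called, 29.7% higher and 26.2% lower). Gfpt2 was higher in neurons (1.25 ± 0.31, adjusted p = 0.00859) and Pgm3 lower (-0.60 ± 0.13, adjusted p = 0.00407). Uap1 was lower at -0.33 ± 0.12 (adjusted p = 0.0387), a call that was lost in 7 of 13 alternatives. It was lost without any 1 neuronal library (-0.33, -0.29 and -0.34) or without the second or the third astrocyte library (-0.28 and -0.32). Ogt was at -0.54 (adjusted p = 0.245) and passed at -0.94 without the second neuronal library.

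**Figure D2:**
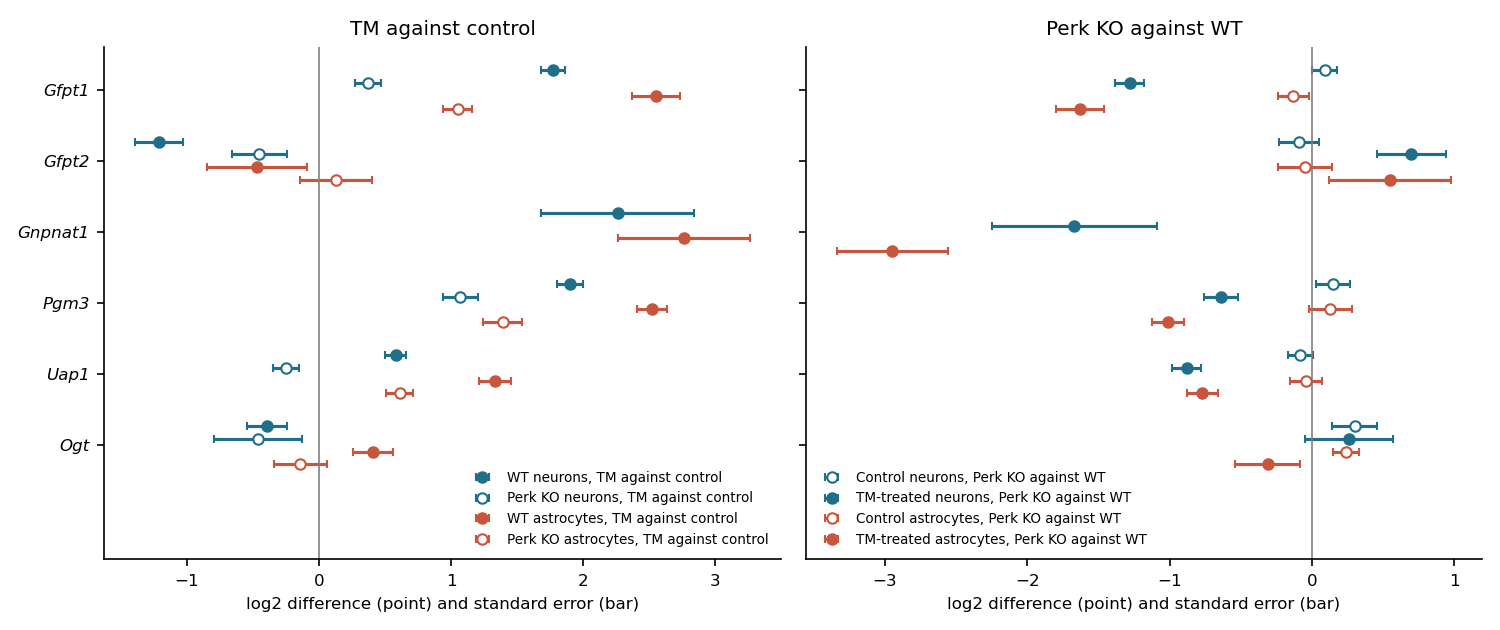
Log2 differences of the 6 enzymes with their standard errors; left, TM against control in each cell type and genotype, right, Perk KO against WT within controls and within TM-treated cultures. Gfpt1, Pgm3 and Uap1 lie near 0 between genotypes in controls and from -0.64 to -1.63 under TM; Gnpnat1 has no point where its counts were too low to test.

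The test of genotype by TM, the difference between the Perk KO and WT responses, was passed by Gfpt1, Pgm3 and Uap1 in both cell types. In neurons the Perk KO response was below the WT response by a log2 value of -1.44 ± 0.13 for Gfpt1 (adjusted p = 1.41e-05). It was -0.86 ± 0.15 for Pgm3 (adjusted p = 0.00131) and -0.86 ± 0.11 for Uap1 (adjusted p = 0.000152). In astrocytes it was -1.53 ± 0.21 for Gfpt1 (adjusted p = 0.000206), -1.16 ± 0.18 for Pgm3 (adjusted p = 0.000498) and -0.75 ± 0.15 for Uap1 (adjusted p = 0.00225). These were 3 of 5 members tested in neurons and 3 of 6 in astrocytes, all with a negative sign. Over all genes, 29.8% were called in neurons and 34.4% in astrocytes, with 15.4% and 14.6% of this sign. For Gfpt2 the sign was positive and the test was not passed in neurons (0.73 ± 0.29, adjusted p = 0.0754) or in astrocytes (0.57 ± 0.50, adjusted p = 0.403). The neuronal Gfpt2 value passed without the third WT TM library (0.87) or the first Perk KO TM library (0.93), and the astrocyte value passed without the third WT TM library (1.16). In the fit over all 24 libraries, 0 of 6 members passed edgeR's test of a difference between the cell types in this Perk dependence, where 5.51% of all genes were called. DESeq2 called 0 as well, and 0 had an unadjusted p under 0.05. The smallest adjusted p was 0.33 (Pgm3, 0.43 ± 0.24), and the Gfpt1 estimate was 0.22 ± 0.25 with a 95% interval of -0.31 to 0.75.

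Between genotypes, no member passed the unblocked test in unstressed cultures, while Gfpt1, Pgm3 and Uap1 were lower in TM-treated Perk KO cultures of both cell types. Among controls, edgeR called 0 of 5 members tested in neurons (21.4% of all genes called) and 0 of 5 in astrocytes (14.9%), as did DESeq2. At an unadjusted p under 0.05 the counts were 0 and 1, the latter Ogt. In control astrocytes, where the replicate numbers were taken to pair the libraries from their correlations, the blocked fit called Ogt (0.24, adjusted p = 0.0314). The Gfpt1 difference of Perk KO against WT was 0.09 ± 0.09 in control neurons (adjusted p = 0.494) and -0.13 ± 0.11 in control astrocytes (adjusted p = 0.442). Under TM, 4 of 6 members were called in neurons, 1 higher and 3 lower (40.1% of all genes called, 20.7% higher and 19.4% lower), and 4 of 6 in astrocytes, all lower (63.3% called, 31.2% lower). The astrocyte count includes Gnpnat1. In both cell types Gnpnat1 reached the minimum mean for a test only through its WT libraries, so it does not count as support. Gfpt1 was at 185, 203 and 218 CPM in TM-treated Perk KO neurons against 460, 507 and 493 CPM in WT, 2.43-fold lower (log2 difference -1.28 ± 0.10, adjusted p = 6.96e-05). Pgm3 (-0.64 ± 0.12, adjusted p = 0.00337) and Uap1 (-0.88 ± 0.10, adjusted p = 0.000349) were lower as well. In astrocytes the Gfpt1 difference was -1.63 ± 0.17 (adjusted p = 7.07e-05), that of Pgm3 -1.01 ± 0.11 (adjusted p = 8.98e-05) and that of Uap1 -0.77 ± 0.11 (adjusted p = 0.000446). For each of these 3, no Perk KO library reached the lowest WT library under TM in either cell type. This describes the libraries only, since the share of all genes without overlap is not given. Gfpt2 was the member called higher in TM-treated Perk KO neurons, at 10.1, 15.9 and 16.7 CPM against 6.76, 9.03 and 10.2 CPM, and the groups overlapped (0.70 ± 0.24, adjusted p = 0.0442). That call was lost without any 1 of the 3 WT libraries (0.56, 0.72 and 0.83) or without the second or the third Perk KO library (0.62 and 0.57). In astrocytes the Gfpt2 difference was 0.55 ± 0.43 (adjusted p = 0.288). With replicate number as a block, a pairing taken from the correlations of those libraries, it was 0.62 and passed (adjusted p = 0.047). It also passed at 1.13 without the third WT TM library. All 9 astrocyte markers were called higher in TM-treated Perk KO neurons than in WT ones, and 8 of 9 in the astrocyte cultures, and their part in these differences was not tested.

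Over all 8 groups, the members differed in how clearly the levels separated. For Gfpt1, the means rose in overlapping pairs. Perk KO and WT control astrocytes (96.4 ± 10.7 and 106 ± 7.07 CPM; SD, n = 3) came first, then WT and Perk KO control neurons (158 ± 13 and 160 ± 4.31). TM-treated Perk KO astrocytes and neurons followed (199 ± 13.8 and 202 ± 16.4), and TM-treated WT neurons and astrocytes came last (487 ± 24.2 and 630 ± 143). The 4 pairs did not overlap with each other. For Pgm3, the 4 control groups came first (16.9 ± 1.01 to 22 ± 4.34), and the 2 genotypes overlapped in each cell type. TM-treated Perk KO neurons were next (36.8 ± 4.1), followed by TM-treated WT neurons and Perk KO astrocytes, which overlapped (56.9 ± 1.07 and 57.1 ± 5.43). TM-treated WT astrocytes stood alone at 118 ± 7.51. For Uap1, TM-treated WT neurons (79.2 ± 3.43) and WT astrocytes (98.2 ± 8.67) each stood apart above the other 6 groups. Gfpt2 was lowest in the 4 astrocyte groups, which overlapped (4.3 ± 2.51 to 6.16 ± 2.15). TM-treated WT neurons (8.66 ± 1.75) overlapped with TM-treated astrocytes of both genotypes. Gfpt2 was highest in the control neurons of both genotypes, which overlapped too (19.9 ± 2.44 and 22.2 ± 2.66). For Ogt, every group overlapped with its neighbour in the order, from TM-treated WT neurons (71.1 ± 8.49) to TM-treated WT astrocytes (165 ± 32.9).

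The balance of the 2 first-step genes also differed between control and TM libraries. On the CPM per kb scale, Gfpt2 made up 20.3 ± 3.04% (SD, n = 3) of the summed Gfpt1 and Gfpt2 level in WT control neurons and 3.09 ± 0.506% in TM-treated WT neurons. The shares did not overlap, with 16.9 to 22.5% in controls and 2.58 to 3.59% under TM. In WT astrocytes the share was 9.13 ± 1.54% in controls and 1.35 ± 1.06% under TM. In Perk KO neurons it was 18.2 ± 1.48% in controls and 11.1 ± 1.91% under TM. In Perk KO astrocytes it was 9.64 ± 1.86% and 5.31 ± 1.93%. The TM libraries lay below the control libraries in each of the 4 pairs, and under TM the Perk KO shares lay above the WT shares in both cell types. With 3 libraries against 3, an exact permutation test cannot give a p below 0.1, so none is given.

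**Figure D3:**
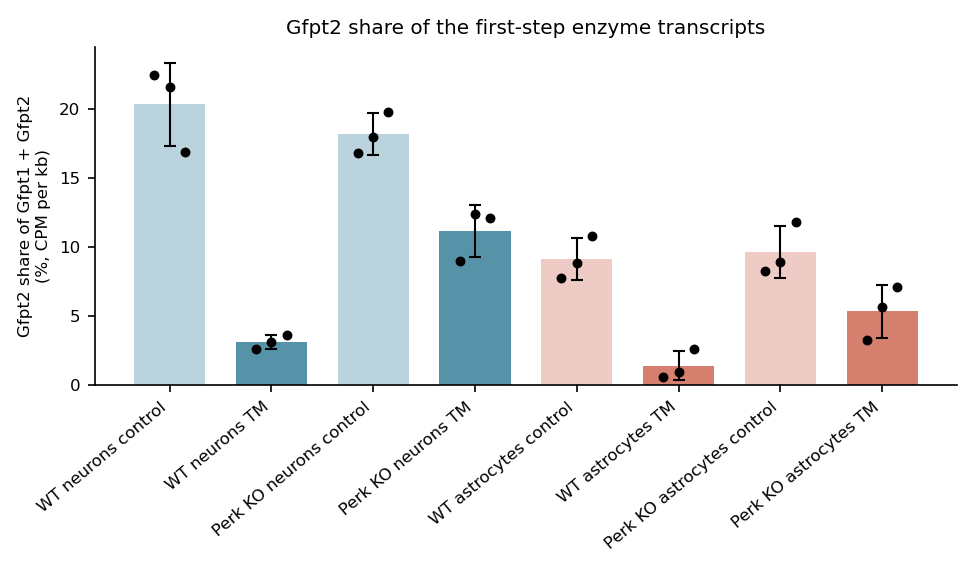
Gfpt2 as a percent of Gfpt1 plus Gfpt2 (CPM per kb); bars are means of 3 libraries from 0, error bars the SD, points the libraries. The share is 20.3% in WT control neurons, 3.09% in TM-treated WT neurons and 1.35% in TM-treated WT astrocytes.

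Ogt uses the end product of the pathway, and its TM differences were small next to those of Gfpt1 and Pgm3 in WT cultures. In WT neurons it was at 95.3, 90.1 and 125 CPM in controls and at 64.4, 80.7 and 68.3 CPM under TM. The 95% interval of the log2 difference was -0.73 to -0.06, and the test was not passed (-0.39 ± 0.15, adjusted p = 0.0508). It was passed in 8 of 13 alternatives, whose adjusted p ran from 0.00141 to 0.323. The authors' deposited table gives a log2 value of -0.424 with an adjusted p of 0.0186 for this comparison. It was the 1 member result of 44 where their call differed from the one here. The difference passed without the first or second control library (-0.48 and -0.51) or the second TM library (-0.49). It also passed with no filter on low counts (-0.4), with DESeq2 or its size factors (-0.43 each) and with a GC correction, alone or with the replicate block (-0.49 each). In WT astrocytes Ogt was at 123, 120 and 125 CPM in controls and at 203, 150 and 143 CPM under TM (0.41 ± 0.15, adjusted p = 0.0489). That call was lost without any 1 control library (0.43, 0.38 and 0.42) or without the first or second TM library (0.25 and 0.49), and with a correction for GC content (0.29). The call was lost in 7 of 13 alternatives in all, and its adjusted p ran from 0.00971 to 0.145 over them.

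In Perk KO cultures the Ogt libraries were far apart under TM, at 45.1, 128 and 85.9 CPM in neurons and 172, 125 and 91.3 CPM in astrocytes. Their controls were at 107, 115 and 143 CPM and at 152, 145 and 134 CPM. In neurons 1 TM library lay within the range of the controls and 2 lay below it, and in astrocytes 1 lay above and 2 below. The TM differences were -0.46 ± 0.33 (adjusted p = 0.346) and -0.14 ± 0.20 (adjusted p = 0.742). Without the second Perk KO TM neuron library the neuronal difference passed at -0.88. Between genotypes, Ogt was not called in control neurons (0.30 ± 0.16, adjusted p = 0.208) and passed at 0.52 without the third WT control library. It was not called in control astrocytes without the block (0.24 ± 0.09, adjusted p = 0.103). In TM-treated neurons the difference was 0.26 ± 0.31 (adjusted p = 0.532) and passed at 0.57 without the first Perk KO library. In TM-treated astrocytes it was -0.31 ± 0.23 (adjusted p = 0.262), and passed in the blocked fit (-0.34, adjusted p = 0.0206) and at -0.57 without the first Perk KO library. The genotype by TM value of Ogt in astrocytes was -0.58 ± 0.27 (adjusted p = 0.117), -0.59 (adjusted p = 0.0203) in the fit blocked on replicate number, and -0.84 without the first Perk KO TM library.

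Gnpnat1 had so few counts that it is given in counts, in replicate order. WT neurons had 6, 2 and 3 in controls and 14, 29 and 11 under TM (log2 difference 2.26 ± 0.58, adjusted p = 0.011). WT astrocytes had 4, 19 and 11 in controls and 58, 86 and 72 under TM (2.76 ± 0.50, adjusted p = 0.00272). In both, every TM library lay above every control library. Perk KO neurons had 2, 3 and 3 in controls and 9, 2 and 8 under TM, and Perk KO astrocytes 3, 6 and 5, and 8, 6 and 14. These fell under the minimum mean of 10 counts and were not tested. In WT neurons that minimum was reached only through the TM libraries, so Gnpnat1 could be tested there only because it was high under TM. Between genotypes under TM the minimum was reached only through the WT libraries. In TM-treated cultures, Gnpnat1 was lower in Perk KO than in WT astrocytes (-2.95 ± 0.39, adjusted p = 0.000256), and in neurons it was at -1.67 ± 0.58 (adjusted p = 0.0504). The neuronal value passed in 3 of 11 alternatives, all changes of processing, and its adjusted p ran from 0.0354 to 0.0957. The astrocyte genotype by TM value was -1.78 ± 0.80 (adjusted p = 0.103), -1.81 (adjusted p = 0.0496) in the blocked fit, and -2.42 without the second WT control library, where it passed.

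These Gnpnat1 counts are uncertain as a measure of the transcript. Of its 4735 exonic bases, 3952 (83.5%) are also exons of another gene, mainly Styx, a pseudophosphatase gene on the other strand, and the library kit named in the labels does not mark strand. The predicted gene Gm14698 matches it at 99.819% over 552 bases. Styx itself rose in WT neurons (1.13 ± 0.36, adjusted p = 0.0274) and in WT astrocytes (1.21 ± 0.18, adjusted p = 0.00112), and was lower in TM-treated Perk KO than WT astrocytes (-1.19 ± 0.19, adjusted p = 0.000641). The part of shared bases in the Gnpnat1 values was not tested. Pgm3 shares 1270 of its 4487 exonic bases (28.3%) with Dop1a, listed as Dopey1, on the other strand. Dopey1 was not called under TM in WT neurons (-0.10, adjusted p = 0.666) or WT astrocytes (0.16, adjusted p = 0.368). The part of shared bases in the Pgm3 values was not tested either. The other 4 members share no exonic base with another annotated gene.

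**Figure D4:**
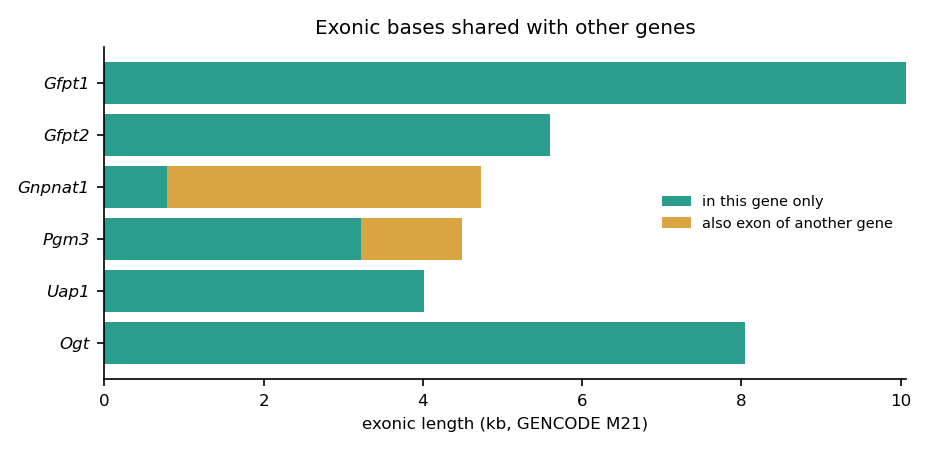
Exonic length of each enzyme gene in kb, split into bases that belong to that gene only (green) and bases that are also exons of another gene (yellow). Gnpnat1 shares 83.5% of its exonic bases, Pgm3 28.3%, and the other 4 none.

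The genes that feed the pathway were mixed. Of 13 supply genes (glucose and glutamine transporters, hexokinases, phosphofructokinases and glutamine enzymes), 5 were higher and 8 lower under TM in WT neurons, against 27% and 24.8% of all genes. Their median log2 difference was -0.48 against 0.04 for all genes. The glutamine transporters Slc1a5 (2.09 ± 0.15, adjusted p = 1.32e-05) and Slc38a2 (1.84 ± 0.14, adjusted p = 1.57e-05) rose together with hexokinase 2, Hk2 (3.17 ± 0.14, adjusted p = 9.88e-07). Glul, the astrocyte enzyme that makes glutamine, fell by 2.76 (SE 0.12, adjusted p = 1.04e-06). In WT astrocytes 6 rose and 6 fell, against 25% of all genes higher and 52.7% called (median -0.21 against -0.01). Slc1a5 (1.43 ± 0.13, adjusted p = 0.000123) and Slc38a2 (1.03 ± 0.13, adjusted p = 0.000467) were again among those higher, and Glul (-2.15 ± 0.11, adjusted p = 1.81e-05) and the hexokinase Hk1 (-1.31 ± 0.09, adjusted p = 4.45e-05) among those lower. In TM-treated cultures without Perk, Glul was higher than in WT in neurons (3.48 ± 0.15, adjusted p = 1.8e-05) and astrocytes (3.20 ± 0.13, adjusted p = 2.09e-06). Hk2 was lower than in WT, by log2 values of -2.66 ± 0.16 (adjusted p = 2.27e-05) and -2.26 ± 0.22 (adjusted p = 5.08e-05). Glul marks astrocytes, and the astrocyte marker sums given above moved the same way. The part of cell makeup in the Glul differences was not tested.

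Of the 9 genes that recycle or interconvert hexosamines, 3 were higher and 2 lower under TM in WT neurons (51.8% of all genes called; median 0.09 against 0.04). Mgea5, the O-GlcNAcase that removes what Ogt adds, rose by 0.59 ± 0.12 (adjusted p = 0.00339). In WT astrocytes none of the 9 was higher and 3 were lower (52.7% of all genes called; median -0.16 against -0.01), among them the kinase Galk2 (-0.92 ± 0.14, adjusted p = 0.00101).

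Among 23 genes that use or carry UDP-GlcNAc, 21 were tested in each WT comparison. Under TM, 4 were higher and 6 lower in WT neurons (51.8% of all genes called; median 0.13 against 0.04). In WT astrocytes 5 were higher and 3 lower (52.7% called; median -0.05 against -0.01). Dpagt1, the TM target, rose in neurons (2.03 ± 0.10, adjusted p = 1.31e-06) and astrocytes (1.49 ± 0.19, adjusted p = 0.000558). Nans, which makes sialic acid phosphate from a UDP-GlcNAc product, rose by 2.64 ± 0.10 (adjusted p = 4.38e-07) and 2.45 ± 0.16 (adjusted p = 3.02e-05). The N-glycan branching enzymes were split. Mgat2 rose in both (1.5 ± 0.10, adjusted p = 5.6e-06, and 1.31 ± 0.09, adjusted p = 4.63e-05), whereas Mgat5 fell in both (-1.55 ± 0.09, adjusted p = 2.85e-06, and -2.35 ± 0.15, adjusted p = 2.88e-05). In Perk KO cultures under TM, 3 of 21 were higher and 5 lower in neurons (23.8% of all genes called), and 4 of 20 higher and 1 lower in astrocytes (10.1%). Dpagt1, Mgat2 and Nans were among those higher in both.

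**Figure D5:**
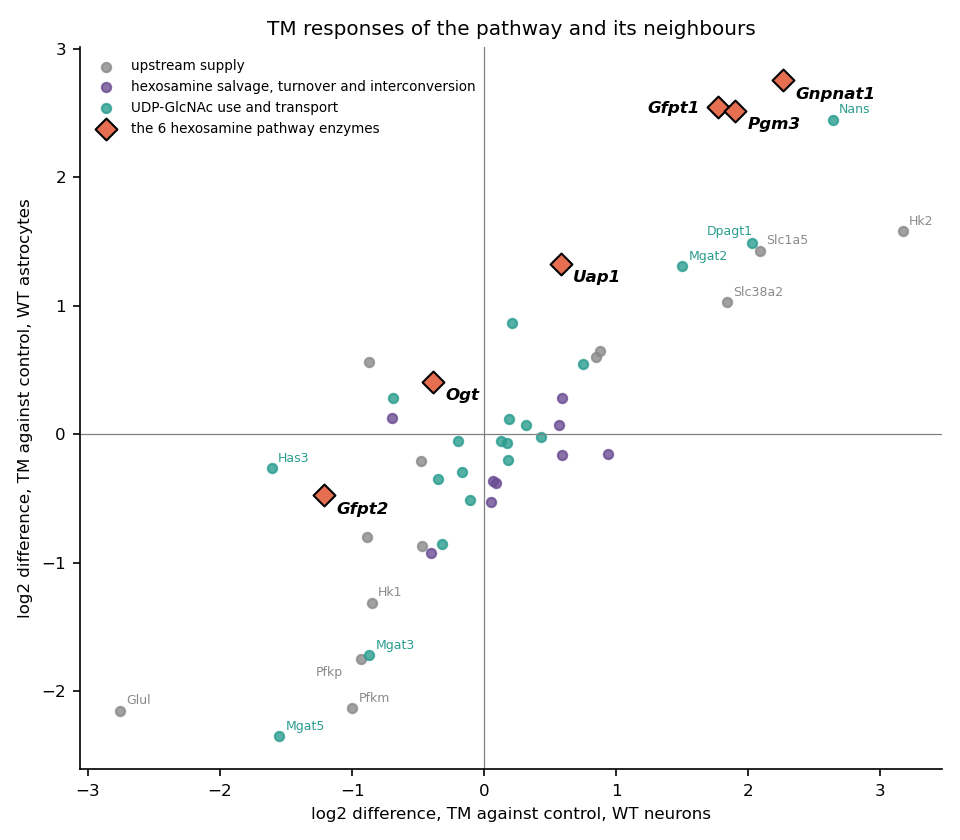
Log2 difference under TM in WT neurons (horizontal) and WT astrocytes (vertical) for the 6 enzymes (diamonds) and the genes of the 3 neighbouring lists (circles). Gfpt1, Pgm3 and Gnpnat1 lie at the upper right with Nans, Uap1 lies nearer the origin, and Gfpt2 lies at the lower left.

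The 6 ER stress genes listed beside the pathway (Xbp1, Atf4, Atf6, Ddit3, Hspa5 and Eif2ak3) all rose in each of the 4 TM comparisons, where 10.1% to 52.7% of all genes were called. For Xbp1 the log2 difference was 1.75 ± 0.10 in WT neurons (adjusted p = 3.9e-06), 2.57 ± 0.20 in WT astrocytes (adjusted p = 6.24e-05), 1.1 ± 0.11 in Perk KO neurons (adjusted p = 0.000752) and 1.90 ± 0.14 in Perk KO astrocytes (adjusted p = 6.74e-05). Xbp1 was lower in TM-treated Perk KO than WT cultures (-1.0 ± 0.12 in neurons, adjusted p = 0.000354, and -1.53 ± 0.19 in astrocytes, adjusted p = 0.000181). Atf4, the transcription factor downstream of Perk, was lower there too (-0.85 ± 0.12, adjusted p = 0.000976, and -2.22 ± 0.20, adjusted p = 3.5e-05). Xbp1 was also lower in Perk KO controls (-0.39 ± 0.11 in neurons, adjusted p = 0.0397, and -0.86 ± 0.15 in astrocytes, adjusted p = 0.0141). Atf4 was lower in Perk KO control astrocytes (-1.38 ± 0.24, adjusted p = 0.013). In the genotype by TM test, Xbp1 (-0.68 ± 0.15, adjusted p = 0.00464) and Atf4 (-0.68 ± 0.14, adjusted p = 0.00304) passed in neurons. In astrocytes they did not pass the unblocked test (-0.69 ± 0.26, adjusted p = 0.0577, and -0.86 ± 0.34, adjusted p = 0.0647). The astrocyte estimates were no smaller in size than the neuronal ones. Neither a blocked fit nor a test between the cell types is given for these genes. These are gene counts, which do not separate spliced from unspliced Xbp1.

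The genes whose levels ran most like each member across the 12 libraries of neurons and the 12 of astrocytes were found among 11460 well-counted genes. The likeness is the lower of the 2 Pearson correlations of log2 CPM, given as a description without a p, since these libraries share treatment and genotype groups. For Gfpt1 the closest were Sel1l and Edem1, both of ER-associated degradation (r = 0.99 in neurons and 0.99 in astrocytes for each), and Uso1 (0.98 and 0.98). For Pgm3 they were Serp1, Dusp23 and Manf (0.99 and 0.99 each). For Uap1 they were Mtmr4 (0.96 and 0.98), Cnst (0.96 and 0.95) and Srm (0.94 and 0.95). For Gnpnat1 the closest was Mrps31 (0.92 and 0.91). Gfpt2 and Ogt had less close neighbours, led by Hpcal1 (0.91 and 0.83) and Taf1 (0.84 and 0.80). Among the members themselves, Gfpt1 and Pgm3 had r = 0.90 in neurons and 0.97 in astrocytes. Pgm3 and Uap1 had r = 0.41 in neurons and 0.96 in astrocytes. Gfpt1 and Gfpt2 ran opposite in neurons (-0.86) and less so in astrocytes (-0.55).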

How the data were processed

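Messenger RNA of 24 cultures was sequenced as paired-end reads. The submitters' processing notes name fastp, HISAT2, featureCounts and DESeq2 with GRCm38.p6, without versions. Per the file headers, the deposited tables hold raw read counts per gene, and the authors' log2 fold changes, p-values and adjusted p-values of 8 comparisons, which are quoted only where named as theirs. The counts of the 8 tables were joined by gene identifier into 32728 genes, and 96 other columns of values per library (normalized and FPKM) were not used. No entry was without a gene name.

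Differences were tested with edgeR 4.0.16 (quasi-likelihood test, TMM normalization) in R 4.3.3 on genes that averaged 10 counts or more across the libraries fitted, with Benjamini-Hochberg adjustment over all genes tested and a threshold of 0.05. Pairs of groups were fitted on their 6 libraries, interactions on 12, and the interaction of all 3 factors on 24. Differences are log2 with standard errors. CPM use TMM factors over all 24 libraries. CPM per kb divide by the gene length in the tables, which matches the exonic length of GENCODE M21. The fits were tested on simulated data. Libraries held 16030022 to 25934747 counts. Alternatives were DESeq2 1.42.0, DESeq2's size factors, no filter, upper-quartile normalization, a GC correction, a replicate block, and leaving out each library.

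The members, lists and motifs were chosen with earlier results of these data known, and the motifs with the promoter sequences in view. The 6 members are named in every comparison; genes of other lists by smallest p among those called, up to 4 per list and comparison. Slc1a5, Slc38a2, Hk2 and Dpagt1 in astrocytes, and Xbp1 and Atf4, were named outside this rule, after their values were seen. Replicate numbers were taken to pair libraries where every same-numbered pair correlated above 0.1 in deviations from group means. This was so for the 4 astrocyte comparisons (lowest 0.21, highest 0.54) and for TM-treated neurons of both genotypes (0.12 to 0.29), but not for the other 3 neuronal comparisons (-0.20 to 0.24). The pairing comes from these correlations, since the labels give only the numbers. The main tests did not use it, and the blocked fits are given as alternatives.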

Additional observations from a re-analysis of the deposited data

Results flagged for a closer look

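Some responses differed between groups by a test of the difference itself, and each is given as a log2 value. The Perk KO response to TM was below the WT response in neurons for Gfpt1 (-1.44), Pgm3 (-0.86) and Uap1 (-0.86). It was below the WT response in astrocytes for Gfpt1 (-1.53), Pgm3 (-1.16) and Uap1 (-0.75). In WT cultures, the response of neurons was below that of astrocytes for Gfpt1 (-0.95), Pgm3 (-0.80), Uap1 (-0.92) and Ogt (-0.98). In Perk KO cultures it was below that of astrocytes for Gfpt1 (-0.66) and Uap1 (-0.84). The size of the Perk dependence itself did not pass the test of a difference between cell types for any of the 6 members, with adjusted p from 0.33 to 0.982.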

How the results depend on the processing

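Over 93 results of single members, 1417 alternatives were run. Of 48 calls, 43 were kept in every alternative run, 5 were lost in at least 1, and no called difference changed sign. For Gnpnat1 under TM in WT neurons, and between genotypes in TM-treated neurons, only 11 alternatives count here, since its counts were too low to test in the others. Of 45 results not called, 22 passed in at least 1 alternative. With the replicate block, 1 of 5 members was called between genotypes in control neurons and 1 in control astrocytes (Ogt in each), where 0 were called without it. In control astrocytes the count was 1 also with the block and GC correction together. The block gave 5 members called in the astrocyte genotype by TM test, against 3. Beside these and the calls given with the report, the block lost Uap1 between TM-treated Perk KO neurons and astrocytes (adjusted p = 0.0619) and gained Gfpt2 in the neuronal genotype by TM test (0.74, adjusted p = 0.0448), where DESeq2 gained it as well (0.79, adjusted p = 0.0333). Upper-quartile normalization called 5 members between Perk KO control neurons and astrocytes, against 3. With a GC correction, the Gnpnat1 difference of TM-treated WT neurons against astrocytes was -1.18 in place of -2.01. Leaving out 1 library gave 1 to 3 members called under TM in Perk KO neurons (2 with all libraries) and 0 to 1 between genotypes in control neurons. The cause of these changes was not tested. Gnpnat1 had 2 to 86 counts per library, which limits its precision. Over all genes, DESeq2 called 1531 in the test of all 3 factors and edgeR 878, and 1842 with the block. Leaving out 1 library gave 50 to 4138 genes called between genotypes in control astrocytes (2260 with all) and 257 to 5414 in control neurons (3370 with all).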
